A study of Mus musculus with 8 samples.

Results

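Lysozymes, Reg lectins, intelectin-1 and the secreted phospholipase A2 of group IIA are proteins that epithelial and immune cells release to kill or hold back bacteria in the gut. The 7 mouse genes described here, Reg4, Lyz2, Lyz1, Pla2g2a, Itln1, Reg3g and Reg3b, were found by their symbols among 52143 gene rows measured by RNA sequencing of mouse distal colon. Each had a single row to use, the one with the highest mean where a symbol was repeated. The 7 were chosen by name after the Siglec-XII minus control differences of these same samples had been seen, so those differences are given as a description.

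Human SIGLEC12 encodes Siglec-XII, a receptor of the sialic acid-binding family that no longer binds sialic acid, and mice have no such gene. Control mice (n = 4 samples) carried Villin1-Cre-ERT, a tamoxifen-inducible Cre recombinase driven by the Villin1 promoter in the epithelium of the small and large intestine. Siglec-XII mice (SIGLEC12-Villin1-Cre-ERT, n = 4 samples) carried in addition human SIGLEC12 in the ROSA26 locus behind a floxed EGFP stop cassette, on 1 allele, so that only epithelial cells in which Cre had acted could express it. The mice were females, 8 weeks old at the first dose in the study's tamoxifen protocol, and both groups received tamoxifen at 10 mg/ml for 5 days, with colons taken 7 days after the last dose. The design text gives fewer mice per condition than there are labelled samples, and the paper's methods describe technical replicate libraries. Whether any samples share a mouse is thus not known, and p-values measure the spread between these samples. The comparison asks what Siglec-XII in the epithelium changes in the colon before any carcinogen is given.

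Of these genes, Lyz1, Pla2g2a and Itln1 are listed here as genes of the Paneth cell of the small intestine. This secretory cell at the base of the crypt packs lysozyme, alpha-defensins and phospholipase A2 into granules. The normal mouse colon has no Paneth cells, and its crypt base holds deep crypt secretory cells, a Reg4-expressing goblet-like cell, instead. Mice have a pair of lysozyme genes, of which Lyz1 is the Paneth cell gene and Lyz2 the gene of macrophages and other myeloid cells. Reg3b and Reg3g are C-type lectins that epithelium makes in response to bacteria and interleukin-22, and Reg3g kills Gram-positive bacteria by making pores in their membranes.

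The lysozyme pair is shown first, because the result below concerns a gene that shares part of its sequence with its neighbour. Both genes lie on the minus strand of chromosome 10 of GRCm38, Lyz1 (ENSMUSG00000069515) at chr10:117287797-117292868 and Lyz2 (ENSMUSG00000069516) at chr10:117277331-117282321, with 5475 bases between them. Their coding sequences are of the same length, 444 bases without the stop codon, and differ at 22 of these bases, 20 of them within the first 300. Those 300 bases are printed here 5′ to 3′ from the GENCODE transcripts, with capitals at the bases where the 2 genes differ, and the coordinates span an intron.
Lyz1, chr10:117291030-117292838, minus strand: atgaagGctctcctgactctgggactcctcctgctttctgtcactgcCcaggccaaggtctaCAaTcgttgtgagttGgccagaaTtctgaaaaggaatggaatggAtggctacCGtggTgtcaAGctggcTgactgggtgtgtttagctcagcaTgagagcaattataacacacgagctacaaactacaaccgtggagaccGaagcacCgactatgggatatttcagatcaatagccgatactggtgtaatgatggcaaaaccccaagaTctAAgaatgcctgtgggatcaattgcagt
Lyz2, chr10:117280642-117282242, minus strand: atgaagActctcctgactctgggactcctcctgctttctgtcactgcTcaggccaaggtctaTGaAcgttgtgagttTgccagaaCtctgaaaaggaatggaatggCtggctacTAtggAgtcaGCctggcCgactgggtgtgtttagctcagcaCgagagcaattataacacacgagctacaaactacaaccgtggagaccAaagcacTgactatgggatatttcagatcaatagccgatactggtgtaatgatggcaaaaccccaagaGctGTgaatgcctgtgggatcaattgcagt

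The capitals are spread unevenly, and the longest identical stretch of the coding sequence, from base 276 to base 393, is 118 bases. Of the 31-base windows in the annotated Lyz1 transcripts, 34.2% also occur in Lyz2, and 32.8% of the Lyz2 windows occur in Lyz1. A read that lies wholly in sequence shared by both genes cannot be placed by sequence. The program that made these values (kallisto) divides such reads between the genes by estimate. The reads were longer than 31 bases, so these percentages do not give the share of such reads. The other members share little: 3.80% of the windows of Itln1 occur in the gene Gm9765, 0.446% of those of Reg3b and 0.231% of those of Reg3g occur in each other, and 0 windows of Reg4 or Pla2g2a occur in any other gene.

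The likeness runs on upstream of the genes. RefSeq promoter sequence (GRCm38) was found for 6 of the 7 genes, and the stretch that lies 50 to 130 bases before the RefSeq start of each lysozyme gene is shown, outside both genes as GENCODE annotates them. Of its 81 bases, 10 differ (87.7% identical), again in capitals.
Lyz1, chr10:117292918-117292998, minus strand: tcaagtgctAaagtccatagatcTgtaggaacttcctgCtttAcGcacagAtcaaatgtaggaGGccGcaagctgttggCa
Lyz2, chr10:117282322-117282402, minus strand: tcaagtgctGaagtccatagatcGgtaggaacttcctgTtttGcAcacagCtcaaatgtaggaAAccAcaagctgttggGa

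The table holds log2(TPM + 1), where TPM is a share of all transcripts in the sample after correction for transcript length, so that levels of different genes in a sample can be set side by side. Read totals cannot be recovered from it, so the depth is unknown and counting error cannot be stated. The labelled tissue had its markers: Car1, Krt8 and the posterior gene Hoxb13 lay at 1931 to 2973, 3573 to 5352 and 358 to 491 TPM. Across the 13164 genes with at least 1 TPM in 4 or more samples, samples correlated pairwise at 0.945 to 0.987, and control 1 stood farthest from the rest (median r = 0.950). The median gene lay 0.15 lower on the log2 scale in the Siglec-XII group. By sample, the median deviation from the gene means was 0.10, 0.06, -0.16 and -0.30 in Siglec-XII samples 1 to 4. In controls 1 to 4 it was -0.04, 0.15, 0.08 and 0.10. Without Siglec-XII samples 3 and 4 the median difference was 0.004, so the -0.15 set beside the lists below was not seen without those samples. In bulk tissue, fewer cells of a type and less RNA per cell cannot be told apart.

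Levels of the 7 genes spanned a wide range. Reg4, a secreted lectin of enteroendocrine and deep crypt secretory cells, was by far the most abundant, at 439, 416, 389 and 426 TPM in controls 1 to 4 and 381, 355, 441 and 327 TPM in Siglec-XII samples 1 to 4. Its mean level over the 8 samples, 397 TPM, was above 97.4% of the genes tested, and the groups overlapped because Siglec-XII sample 3 held the highest value of all. It also varied least, with a coefficient of variation of 10.4%. Reg4 (ENSMUSG00000027876) lies at chr3:98222156-98236748 on the plus strand.

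Lyz2 came next but was uneven within both groups. Its values were 29.1, 8.50, 7.49 and 18.0 TPM in the controls and 7.02, 8.68, 22.6 and 19.8 TPM in the Siglec-XII samples. Each group thus had a pair of samples under 9 TPM and a pair near or above 18 TPM, and the coefficient of variation was 55.2%.

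Lyz1 was the member whose groups separated. It read 3.37, 4.68, 5.88 and 4.12 TPM in the controls and 15.0, 10.4, 13.2 and 6.13 TPM in the Siglec-XII samples. Every Siglec-XII sample lay above every control, although the lowest of them, sample 4, was close to the highest control, control 3. The mean was 4.51 ± 1.06 TPM in controls (SD, n = 4) and 11.2 ± 3.87 TPM in Siglec-XII samples (SD, n = 4), 2.48 times as high.

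Pla2g2a and Itln1 were both near 2 TPM in every sample. Pla2g2a, a phospholipase that breaks down bacterial membranes (ENSMUSG00000058908, chr4:138831857-138835186, plus strand), read 1.75, 2.57, 2.16 and 1.93 TPM in controls and 2.89, 1.33, 3.04 and 2.24 TPM in Siglec-XII samples. The gene is annotated as a polymorphic pseudogene, since it is disrupted in the C57BL/6 reference strain, and the value is of RNA only. Itln1, a lectin that binds microbial sugars (ENSMUSG00000038209, chr1:171518122-171535294, minus strand), read 2.04, 1.87, 1.70 and 1.96 TPM in controls and 1.37, 2.39, 1.72 and 2.13 TPM in Siglec-XII samples. In both genes the Siglec-XII values enclosed those of all 4 controls.

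The Reg3 lectins were close to absent. Reg3g (ENSMUSG00000030017, chr6:78466269-78468872, minus strand) read 0.376, 0.123, 0.656 and 0.0868 TPM in controls and 0.373, 0.131, 0 and 0.323 TPM in Siglec-XII samples. Reg3b (ENSMUSG00000071356, chr6:78370657-78373466, plus strand) was listed at 0 in 7 samples and at 0.0641 TPM in control 3. The row of Reg3g is named after a transcript with a retained intron, and neither gene reached 1 TPM in any sample, so neither entered the test.

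**Figure D1:**
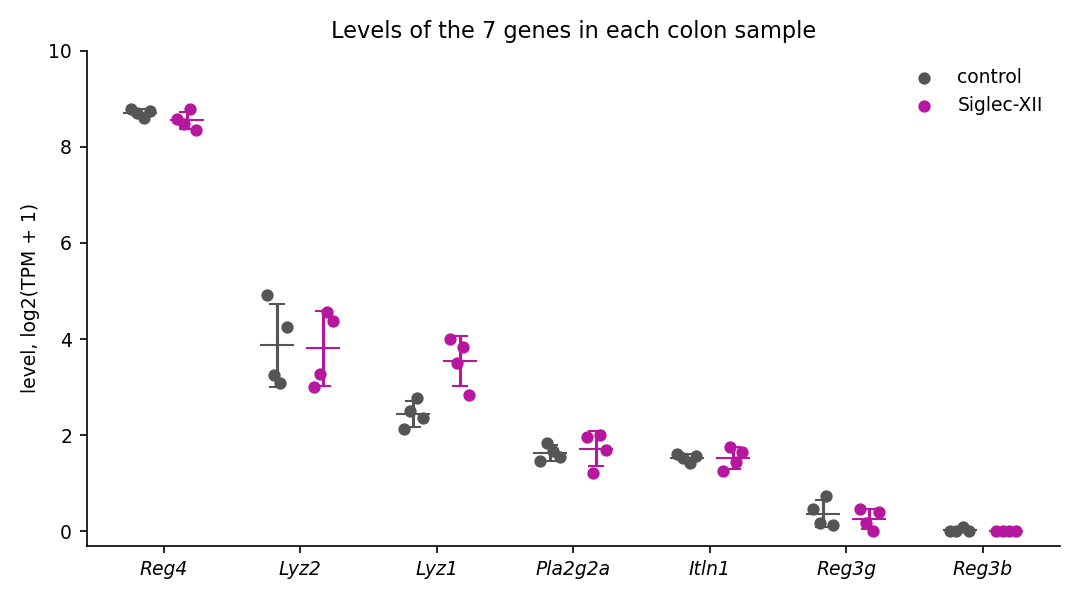
Level of each of the 7 genes as log2(TPM + 1) in the 4 control (grey) and 4 Siglec-XII (purple) samples, 1 point per sample, with group mean and SD as a line and bars. Reg4 stands far above the rest, both groups of Lyz2 are widely spread, and the points of Lyz1 do not overlap between the groups.

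The order of the levels was tested within samples, by the difference between each gene and the next on the log2(TPM + 1) scale, with a two-sided exact sign-flip test over the 8 samples (smallest possible p = 0.00781) and Benjamini-Hochberg adjustment over the 6 steps. The order was taken from the mean levels of these same 8 samples. Each mean step was thus positive by choice, and the p-values are no independent test of the order. Reg4 exceeded Lyz2 by 4.79 ± 0.72 (SD, n = 8; exact sign-flip test, adjusted p = 0.0156). Lyz1 exceeded Pla2g2a by 1.32 ± 0.64, and Itln1 exceeded Reg3g by 1.21 ± 0.32 (both in 8 of 8 samples; exact sign-flip test, adjusted p = 0.0156). No order is read between Reg3g and Reg3b, since both were below 1 TPM throughout and Reg3b was at 0 in 7 samples. The other steps did not pass: Lyz2 exceeded Lyz1 by 0.85 ± 1.21, in 6 of 8 samples (exact sign-flip test, adjusted p = 0.113), and Pla2g2a exceeded Itln1 by 0.15 ± 0.40, in 5 of 8 (adjusted p = 0.305, exact sign-flip test). Lyz2 was below Lyz1 only in Siglec-XII samples 1 and 2. Without Siglec-XII sample 1, the step from Lyz2 to Lyz1 was 1.11 and passed the threshold (exact sign-flip test, adjusted p = 0.0375).

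The group differences of the 5 tested members, Siglec-XII minus control on the log2(TPM + 1) scale, were taken from a limma fit across all 13164 genes. Lyz1 differed by 1.10 (standard error 0.259, 95% confidence interval 0.51 to 1.69), from 2.44 ± 0.27 in controls to 3.54 ± 0.52 (SD, n = 4 each). Its adjusted p was 0.515 from limma, and it ranked 28th of the 13164 genes by unadjusted P. Reg4 differed by -0.16 (95% confidence interval -0.39 to 0.07), Lyz2 by -0.07 (-1.16 to 1.02), Pla2g2a by 0.10 (-0.34 to 0.54) and Itln1 by -0.01 (-0.33 to 0.32). The interval of Lyz2 allows more than a doubling or a halving, whereas those of Reg4, Pla2g2a and Itln1 stay within a log2 difference of 1.

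Of the 5 tested members, 0 passed an adjusted p of 0.05 with a fold of 2, as did 0.038% of all genes tested (5 genes, none of them a member). At an unadjusted P of 0.05 with a fold of 2, 1 member, Lyz1, was higher, against 0.243% of all genes higher and 0.676% lower. The groups of Lyz1 did not overlap, a separation upwards that 1.05% of all genes tested showed, against 4.06% downwards. The differences of the 5 had a median of -0.01, against -0.15 over all genes tested. Because the genes were named with these differences in view, nothing is read from the counts. The sign of Reg4 turned with median centring (0.05), and those of Lyz2 and Itln1 turned with median centring (0.15 and 0.21) and quantile normalization (0.13 and 0.19). Lyz1 was 1.31 after median centring and 1.33 after quantile normalization, passed the adjusted threshold with array weights only (1.08, limma adjusted p = 0.0435, the lowest of 0.0435 to 0.990 over 17 alternatives), and was 1.31 without Siglec-XII samples 3 and 4. Without control 1 or Siglec-XII sample 1 it was 0.99 or 0.95, under a fold of 2.

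**Figure D2:**
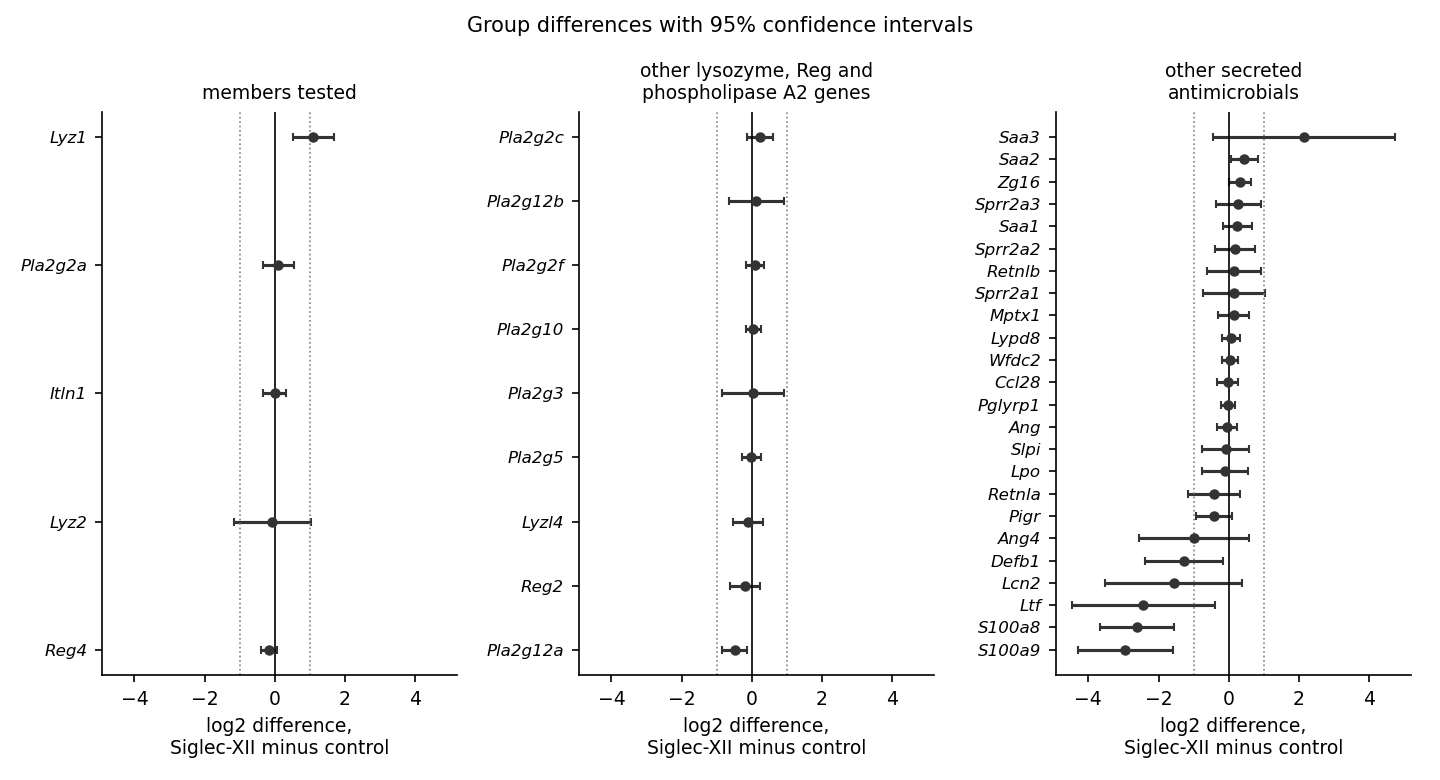
Log2 difference, Siglec-XII minus control, of log2(TPM + 1) with its 95% confidence interval for the members tested (left), other lysozyme, Reg and phospholipase A2 genes (middle) and other secreted antimicrobial genes (right), with dotted lines at a fold of 2. Lyz1 at 1.10 is the only member past a fold of 2, and S100a8 and S100a9 lie lowest at -2.61 and -2.94.

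Since kallisto divides shared reads between Lyz1 and Lyz2, their sum was taken as well. Their sum was 32.4, 13.2, 13.4 and 22.1 TPM in the controls and 22.0, 19.0, 35.8 and 25.9 TPM in the Siglec-XII samples, and the groups overlapped (20.3 ± 9.11 against 25.7 ± 7.31 TPM, SD, n = 4 each). Lyz1 made up 10.4%, 35.5%, 44.0% and 18.7% of the sum in the controls and 68.1%, 54.4%, 36.8% and 23.6% in the Siglec-XII samples. By this share the groups overlapped too, with controls 2 and 3 above Siglec-XII sample 4. The separation of Lyz1 is therefore seen in its own estimated level and not in the total or the share. How far the division of shared reads moved each gene's value was not tested.

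**Figure D3:**
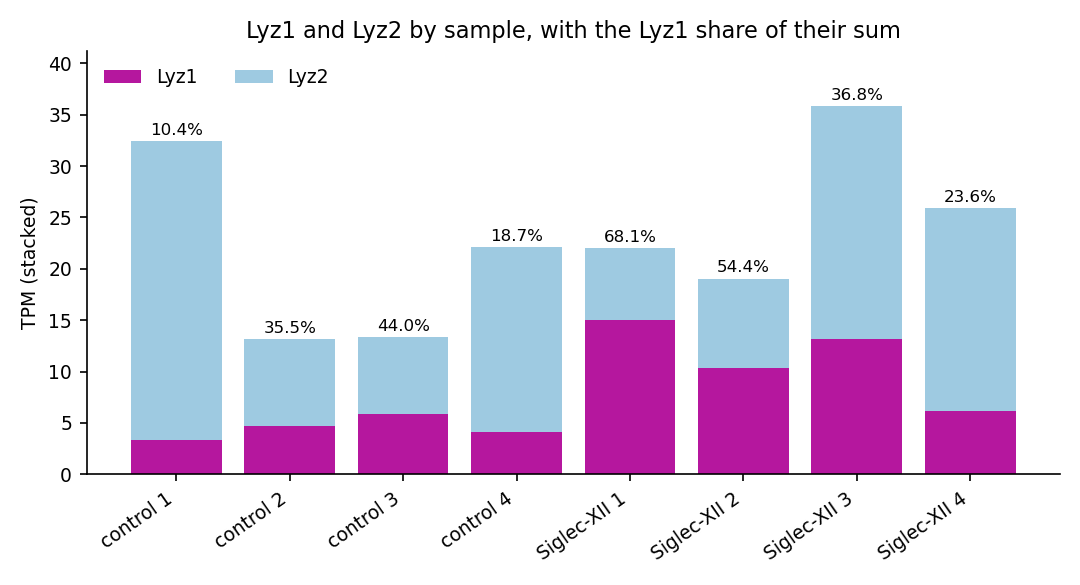
TPM of Lyz1 (purple) and Lyz2 (blue) stacked for each of the 8 samples, with the Lyz1 share of the sum printed above each bar. Lyz1 is lowest in control 1 at 3.37 TPM and highest in Siglec-XII sample 1 at 15.0 TPM, while the sums of the groups overlap.

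Lyz2 is a myeloid gene, and the defining macrophage genes were low in the tissue. The receptors Csf1r and Adgre1, which define macrophages, stayed at or below 1.05 and 0.400 TPM, and 10 of the 20 macrophage and monocyte genes were tested. The summed level of the 20 genes was 512 to 545 TPM in controls and 445 to 559 TPM in Siglec-XII samples, of which Ctss, a protease gene not limited to macrophages, made up 334 to 470 TPM. Cd14 and Cd74, also on the list, were higher than the receptors, at 24.7 to 61.4 and 11.8 to 81.3 TPM. The complement genes C1qa, C1qb and C1qc, made mainly by tissue macrophages, summed to 22.7, 8.47, 7.80 and 12.9 TPM in the controls and 4.78, 4.80, 9.25 and 6.04 TPM in the Siglec-XII samples. Within each group the samples with more Lyz2, controls 1 and 4 and Siglec-XII samples 3 and 4, were also those with more C1q. Between the groups they did not go together. The ratio of Lyz2 to the C1q sum was 0.961 to 1.39 in controls and 1.47 to 3.28 in Siglec-XII samples. Over the list, 2 genes (C1qb and C1qc) were lower at an unadjusted P of 0.05 and 0 were higher, where 7.67% of all genes tested were lower and 1.19% higher, and the median difference of the list was -0.57, against -0.15 over all genes tested. Their part in the Lyz2 values was not tested.

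The defensins of Paneth cells were at or near 0. All 22 alpha-defensin genes in the table were under 1 TPM, and 20 of them were listed at 0 in every sample. The exceptions were Defa17 at 0.601 TPM and Defa24 at 0.181 TPM, both in Siglec-XII sample 2 and at 0 elsewhere. Mmp7, the protease that activates alpha-defensins in mice, reached 1.88 TPM in control 2 and at most 0.250 TPM in any other sample. Ang4, a ribonuclease with antibacterial activity made by Paneth and goblet cells, read 6.45, 1.54, 3.94 and 18.8 TPM in controls and 0.632, 0.893, 7.47 and 3.66 TPM in Siglec-XII samples. The Siglec-XII samples with the most Lyz1, samples 1 and 3, thus held little and much Ang4. Of the 12 genes in the Paneth cell list, 6 were tested and the only 1 past unadjusted P was Lyz1 itself. Over all genes tested, 1.19% were higher and 7.67% lower at that limit. The summed level of the list, members included, was 81.5 to 158 TPM in controls and 132 to 188 TPM in Siglec-XII samples, most of it from Nupr1, a stress-response gene also active outside Paneth cells (47.9 to 143 TPM).

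Reg4 was set beside the other genes of deep crypt secretory and goblet cells, all 14 of which were tested. Spink4, a secreted protease inhibitor made by goblet cells, was the only 1 past unadjusted P (0.43, limma adjusted p = 0.515), and the median difference of the list was -0.02. Over all genes tested the median was -0.15, and 1.19% were higher and 7.67% lower at unadjusted P. The most abundant genes of the list were Zg16, a lectin that binds Gram-positive bacteria (4202 to 7586 TPM), the trefoil factor Tff3 (2574 to 4480 TPM) and Spink4 itself (1139 to 2365 TPM). Kit, which marks deep crypt secretory cells, was at 4.78 to 9.61 TPM, with a difference of -0.19.

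Genes of the pancreas and small intestine, tissues that express some of the members, were mixed. The pancreatic enzymes Cpa1, Pnlip, Try4 and Try5 were listed at 0 in every sample, although 2 of the 12 pancreatic genes, Cela1 (805 to 1223 TPM) and Clps (54.0 to 78.7 TPM), were expressed. The small intestinal gene Apoa4 was at 0 in every sample, and Fabp1 and Sis did not exceed 0.330 and 0.256 TPM, whereas the glucose transporter Slc5a1 (51.6 to 83.1 TPM) and the bile acid-binding protein Fabp6 (24.5 to 33.1 TPM) were expressed. Of the 12 small intestinal genes, 6 were tested, with a median difference of -0.30, and 2 were lower at unadjusted P: Ada (-0.61) and Anpep (-0.50). Over all genes tested the median difference was -0.15, and 7.67% were lower at unadjusted P. The part of the pancreatic and small intestinal genes in the values of the members was not tested. The summed levels of the pancreatic list, 879 to 994 TPM in controls and 914 to 1279 TPM in Siglec-XII samples, and of the small intestinal list, 116 to 123 and 97.0 to 129 TPM, overlapped between the groups.

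Several markers of neutrophils, B and plasma cells and smooth muscle were lower in Siglec-XII samples, none past the adjusted threshold. S100a8 and S100a9, the subunits of calprotectin, summed to 23.2, 78.0, 29.1 and 130 TPM in controls and 7.66, 6.19, 2.21 and 8.48 TPM in Siglec-XII samples. Of the other listed genes, Elane was at 0 in every sample and Mpo at most 0.0821 TPM. The receptor Csf3r read 0.0137 to 1.52 TPM in controls and 0 to 0.136 TPM in Siglec-XII samples. Cxcr2 read 0.140 to 1.31 and 0.0398 to 0.217 TPM, so both receptors were low and overlapped between the groups. Ly6g read 242 to 328 TPM in controls and 230 to 356 TPM in Siglec-XII samples. The 12 neutrophil genes summed to 320 to 710 TPM in controls and 244 to 375 TPM in Siglec-XII samples. The B and plasma cell list summed to 5.32 to 125 TPM in controls and 2.92 to 9.93 TPM in Siglec-XII samples, and the 10 smooth muscle genes to 698 to 1106 and 334 to 712 TPM. The median differences of the tested genes were -2.52 for neutrophil genes (4 of 12 tested, 3 past unadjusted P and all lower), -1.67 for B and plasma cell genes (4 of 9 tested, 2 lower, Igha at -2.19 and Igkc at -2.25) and -0.66 for smooth muscle (10 of 10 tested, 5 lower). Over all genes tested the median difference was -0.15, and 7.67% were lower and 1.19% higher at unadjusted P. The part of these cells in the Lyz1 difference was not tested.

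**Figure D4:**
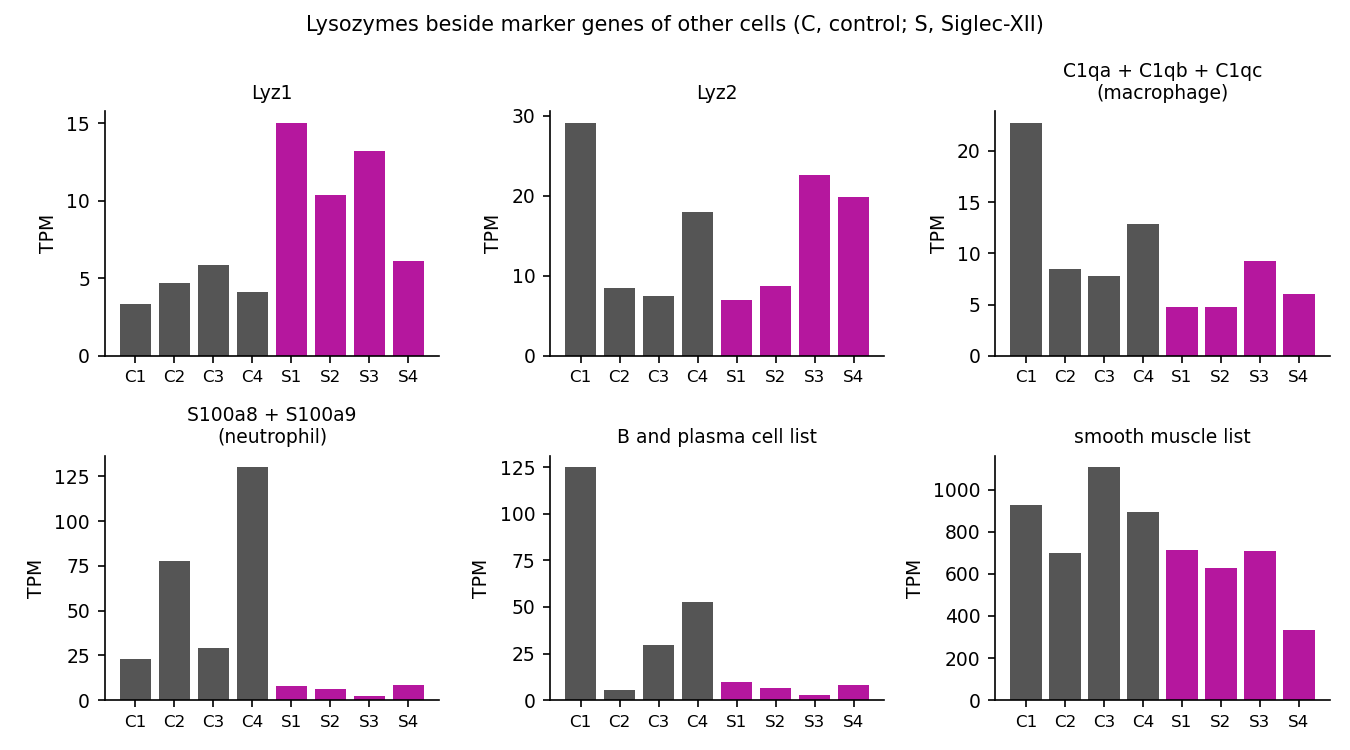
TPM in controls 1 to 4 (grey, C1 to C4) and Siglec-XII samples 1 to 4 (purple, S1 to S4) of Lyz1, Lyz2, the summed C1q genes, summed S100a8 and S100a9, and the summed B and plasma cell and smooth muscle lists. Lyz1 is higher in S1 to S4, the C1q sum is highest in C1 at 22.7 TPM, and the sum of S100a8 and S100a9 is 23.2 TPM or more in every control and 8.48 TPM or less in every Siglec-XII sample.

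The relatives of the members were mostly silent or steady. Of 19 other lysozyme, Reg and secreted phospholipase A2 genes, 9 were tested and 4 were at 0 in every sample, among them Reg3a and Reg3d. Reg2 was the only other Reg gene tested, at 1.39 to 2.58 TPM in controls and 1.09 to 2.11 TPM in Siglec-XII samples. The phospholipase with most RNA in this colon was Pla2g10, at 113 to 145 TPM in controls and 120 to 141 TPM in Siglec-XII samples, followed by Pla2g2f and Pla2g5, all far above Pla2g2a. Pla2g12a was the only relative past unadjusted P, at 9.28, 7.12, 5.80 and 7.78 TPM in controls and 4.80, 5.52, 5.57 and 4.19 TPM in Siglec-XII samples (-0.49, limma adjusted p = 0.515). The median difference of the 9 genes was 0.04, against -0.15 over all genes tested, of which 7.67% were lower and 1.19% higher at unadjusted P.

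Other secreted antimicrobials filled a far larger part of the RNA than the 7 genes did. The 30 listed genes summed to 45278 to 68302 TPM, of which Sprr2a2, a small proline-rich protein active against Gram-positive bacteria, made up 14982 to 35308 TPM and Lypd8, which binds flagella, 14191 to 19106 TPM. The 7 members summed to 407 to 476 TPM in controls and 358 to 481 TPM in Siglec-XII samples. Of the 30 genes, 24 were tested, with a median difference of -0.03, and 0 passed the adjusted threshold. At unadjusted P with a fold of 2, 4 were lower: S100a9 (-2.94), S100a8 (-2.61), Ltf (-2.43) and Defb1 (-1.27), of which the first 3 belong to the neutrophil list too. Without any 1 of control 2, control 4 and Siglec-XII samples 3 and 4, the count was 2. Over all genes tested, 0.676% were lower and 0.243% higher at unadjusted P with a fold of 2. Ltf, the iron-binding protein lactoferrin, read 112, 282, 12.6 and 250 TPM in controls and 20.1, 41.6, 12.0 and 10.1 TPM in Siglec-XII samples. Defb1, a beta-defensin of epithelium, read 20.6, 11.2, 3.25 and 19.6 TPM in controls and 3.21, 6.84, 2.85 and 4.35 TPM in Siglec-XII samples, so that control 3 lay among the Siglec-XII samples in both genes.

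The acute-phase genes differed among themselves. Saa1, serum amyloid A of the colon epithelium, was at 1668 to 2819 TPM in controls and 2319 to 3354 TPM in Siglec-XII samples. Saa2 was the only gene of the list higher at unadjusted P, at 1.95, 1.24, 1.87 and 1.66 TPM in controls and 3.83, 2.25, 2.14 and 2.51 TPM in Siglec-XII samples (0.44, limma adjusted p = 0.515). Over all genes tested, 1.19% were higher at unadjusted P. Saa3 read 15.5 and 108 TPM in Siglec-XII samples 3 and 4 and at most 1.43 TPM in every other sample. Lcn2, an iron-sequestering protein of inflamed mucosa, read 54.8 TPM in control 2 and at most 7.43 TPM elsewhere.

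Genes that act upstream of the Reg3 lectins ranged widely in level, and their part in the Reg3 levels was not tested. Il22, the cytokine that induces Reg3b and Reg3g, was listed at 0 in every sample, while the epithelial chain of its receptor, Il22ra1, was at 16.3 to 27.3 TPM in controls and 20.5 to 32.2 TPM in Siglec-XII samples. Il6 and Il23a did not exceed 0.0478 and 0.174 TPM, whereas the most abundant genes of the list, Il18 and Il10rb, read 133 to 271 and 57.2 to 73.0 TPM. Stat3, the transcription factor downstream of interleukin-22, read 32.8, 47.5, 47.4 and 39.2 TPM in controls and 47.2, 41.0, 24.6 and 20.6 TPM in Siglec-XII samples, with overlap between the groups. Of the 32 genes of interleukin-22, STAT3 and microbial sensing, 20 were tested, 0 were higher and 2 lower at unadjusted P: Il6st (-0.34), the shared receptor of the interleukin-6 family, and Tlr5 (-0.66), the receptor for flagellin. Tlr5 read 2.23, 2.06, 1.89 and 3.07 TPM in controls and 1.75, 1.41, 0.753 and 0.608 TPM in Siglec-XII samples. The median difference of the 20 genes was -0.12, against -0.15 over all genes tested, of which 7.67% were lower and 1.19% higher at unadjusted P.

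On the deposited scale, no pair of the 7 genes was shown to vary together over the 8 samples. Of the 21 pairs, 5 had a Pearson r above 0 and 16 below 0, and 0 passed after adjustment over the 21 pairs (exact permutation tests, smallest adjusted p = 0.345). The pairs with Reg3b could not pass. Reg3b was above 0 in control 3 only, so an exact permutation p below 0.125 was not possible for their r. The pair farthest from 0 was Pla2g2a and Itln1 (r = -0.81, exact permutation p = 0.0164, adjusted p = 0.345; rho = -0.69, exact permutation p = 0.0694, adjusted p = 0.751). Its r was -0.72 without Siglec-XII samples 2 and 3, the samples farthest from the median of Pla2g2a, and -0.82 with group means removed, but it turned to 0.23 with median centring.

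Lyz1 and Lyz2, the neighbours with shared windows, gave r = -0.36 (exact permutation p = 0.347, adjusted p = 0.791) and rho = -0.38 (exact permutation p = 0.360, adjusted p = 0.751). Without control 1 and Siglec-XII sample 3, the samples farthest from the median of Lyz2, r was -0.53. Reg3g and Reg3b gave r = 0.70 (exact permutation p = 0.125, the lowest possible here, adjusted p = 0.791; rho = 0.58, exact permutation p = 0.250, adjusted p = 0.751), a value that rests on control 3, the only sample with any Reg3b. Reg4 and Lyz2 gave r = 0.34 (exact permutation p = 0.401, adjusted p = 0.791; rho = 0.48, exact permutation p = 0.243, adjusted p = 0.751), 0.91 without Siglec-XII samples 2 and 4, and 0.87 with median centring, where the pair passed (exact permutation test, adjusted p = 0.0250).

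**Figure D5:**
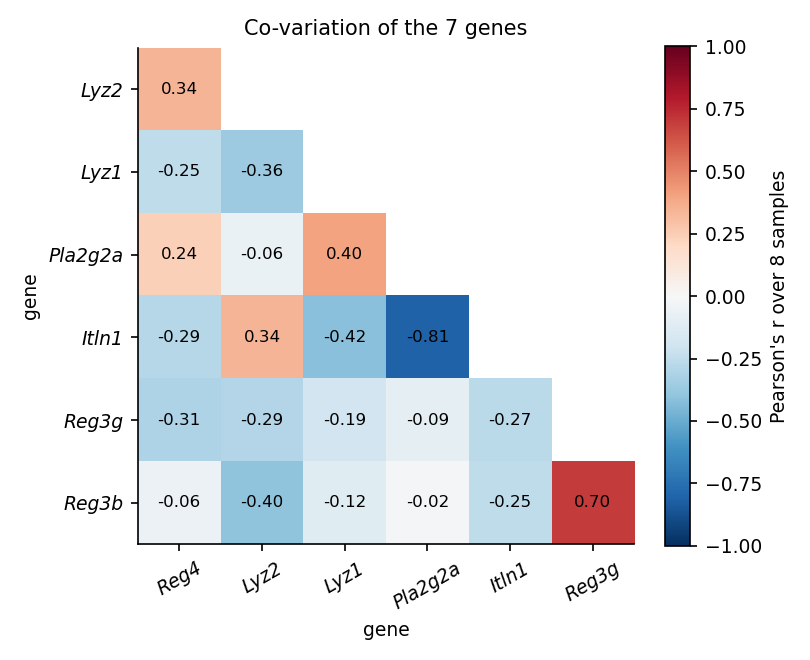
Pearson's r over the 8 samples for each of the 21 pairs of genes on the log2(TPM + 1) scale, blue below 0 and red above. The pair of Pla2g2a and Itln1 at -0.81 and that of Reg3g and Reg3b at 0.70 lie farthest from 0, and no pair passed after adjustment.

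The genes whose levels followed each member most closely were sought by Pearson's r over the 8 samples among 13006 other genes, as a description. Those most like Lyz1 were Chmp6, a subunit of the ESCRT-III complex of endosomes (r = 0.93, 71.7 to 79.2 TPM in controls and 80.2 to 87.6 TPM in Siglec-XII samples), and Ydjc (r = 0.92). Those most like Reg4 were Fam71e1 and B3gnt8, a glycosyltransferase (both r = 0.94), and those most like Lyz2 were the ribosomal pseudogene Rpl14-ps1 (r = 0.97) and Lime1, an adaptor of lymphocyte receptors (r = 0.94). Rpl14-ps1 was low, at 2.66 and 2.36 TPM in controls 1 and 4 and 2.46 and 2.33 TPM in Siglec-XII samples 3 and 4. In the other samples it was at or near 0. Pla2g2a was followed by Srp19, of the signal recognition particle (r = 0.96), and Gm11429 (r = 0.94), and Itln1 by Gm25509 (r = 0.94) and Gm20337 (r = 0.89). For Reg3g, Gm29237 (r = 0.87) and Gm10108 (r = 0.86), and for Reg3b, Zfp709 (r = 0.92) and Mtg1 (r = 0.90), came out highest, on levels of the members too low to be tested. None of these genes is another secreted antimicrobial of the lists. Each r is the highest or next highest of 13006 and is given without a test.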

How the data were processed

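RNA of 4 control and 4 Siglec-XII samples of distal colon was sequenced as paired-end libraries. The deposited values are log2(TPM + 1), made by the authors with kallisto 0.45.0 on GRCm38 per the labels. The methods name another kallisto release, a human reference and another library kit, which was not resolved; the rows are mouse genes. TPM was recovered as the antilog (base 2) of the value minus 1. Genes with at least 1 TPM in 4 samples (13164) were fitted with limma 3.58.1 (R 4.3.3) with an intensity trend, with Benjamini-Hochberg adjustment over all of them. On simulated data for this comparison with 13164 genes, 171 of 200 changed genes were recovered, and 8 of the 179 calls were false. These counts are pooled over all sizes of difference. Recovery of a difference as small as that of Lyz1 was not tested separately. Exact tests within samples and over pairs of genes were enumerated in Python 3.11.15. Positions, transcripts and windows are from GENCODE M21. Named were all members, the 2 tested genes most like each, list genes past unadjusted P of 0.05 and a fold of 2, markers of other cells and genes sharing sequence. The most abundant genes were named in some lists only. Further list genes past unadjusted P alone, and Saa1, Saa3, Lcn2, Ang4, Stat3, Reg2, Il6, Il23a, Kit, Il22ra1, Car1, Ly6g, Csf3r and Cxcr2, were chosen for their role or after their values were seen. The members and lists were chosen with earlier results of these data known. Alternatives are given in the closing section. SIGLEC12, EGFP and Cre have no row in the table, so induction was not measured here.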

Additional observations from a re-analysis of the deposited data

Results flagged for a closer look

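Among 13 genes, the 7 members and the list genes past unadjusted P of 0.05 and a fold of 2, 25 groups of 4 samples with any spread were examined for a sample standing apart, by the gap to its nearest neighbour over the group's range, against Dixon's 95% critical value. Chance alone passes about 1 in 20 such groups. In 2 groups a sample stood apart. Reg3b in control 3 (ratio 1) was at 0.0641 TPM with the other controls at 0, and the r of Reg3g and Reg3b rests on this sample. Igha, the constant region of IgA heavy chain, in Siglec-XII sample 3 (ratio 0.954) was at 0.401 TPM against 1.27 to 1.32 TPM in the other Siglec-XII samples. Lyz1 was not among them in either group.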

How the results depend on the processing

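Lyz1 kept its direction in all 17 alternatives, from 0.95 to 1.34, with limma adjusted p from 0.0435 to 0.990; leaving out single samples gave 0.95 (without Siglec-XII 1) to 1.34 (without Siglec-XII 4). The count of members past the adjusted threshold was 1 with array weights (Lyz1, 1.08) and 0 otherwise, and the count past unadjusted P and a fold of 2 was 0 to 1 on leaving out single samples (0 without control 1 or Siglec-XII 1). The sign of Reg4 turned with median centring (0.055); single samples left out gave -0.24 to -0.094. Lyz2 turned to 0.13 with quantile normalization and 0.15 with median centring, was -0.36 with array weights and -0.73 without Siglec-XII 3 and 4, and ran from -0.33 to 0.28 on leaving out single samples. Pla2g2a turned to -0.29 with array weights and -0.036 without Siglec-XII 3 and 4 (-0.0013 to 0.26 on leaving out single samples). Itln1 turned to 0.19 with quantile normalization, 0.21 with median centring and 0.15 with array weights (-0.085 to 0.087). With a pseudocount of 0.1, Reg3g moved to -0.42 and Reg3b to -0.18. The step from Lyz2 to Lyz1 ran from 0.57 to 1.11, and the r of Pla2g2a and Itln1 turned to 0.087 with quantile normalization and 0.23 with median centring, where 1 pair passed. The cause of these turns was not tested.

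Over all genes, 5 passed the adjusted threshold with a fold of 2, against 3 without a filter, 3 at 5 TPM, 12 with array weights, 0 without Siglec-XII 3 and 4 and 1 to 6 on leaving out single samples. The 121 genes past unadjusted P and a fold of 2 became 63 at 5 TPM, 204 with a pseudocount of 0.1, 77 with quantile normalization, 74 with median centring, 45 without Siglec-XII 3 and 4, and 60 (without Siglec-XII 3) to 316 (without control 3). The split of higher and lower was 32 and 89, 36 and 41 with quantile normalization, 40 and 34 with median centring and 42 and 73 with array weights. It was 25 and 20 without Siglec-XII 3 and 4. Of other secreted antimicrobials, 4 passed, and 2 to 5 on leaving out single samples, with 2 without control 2, control 4, Siglec-XII 3 or Siglec-XII 4. Replicate numbers were not taken as pairs: deviations of same-numbered samples correlated at -0.16, -0.20, 0.10 and -0.0025, and 0 of 4 controls correlated best with their own number. With the replicate block, 4 genes passed the adjusted threshold and Lyz1 differed by 1.10 (limma adjusted p = 0.629). The depth is unknown, so the precision of Reg3g and Reg3b cannot be given.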
